A study of Rattus with 4 samples.

Results

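Transcripts of 44 immediate early and short-lived genes were compared between RNA precipitated with an antibody to NONO and input RNA of cultured rat cardiac cells. The 44 genes were taken from a fixed list by symbol, and all 44 were found among the 13731 listed genes. NONO is a nuclear RNA- and DNA-binding protein of the DBHS family, and in RNA immunoprecipitation sequencing the RNA recovered with a protein is sequenced beside the input it was drawn from. There were 2 libraries precipitated with the anti-NONO antibody (NONO IP), labelled as transfected with NONO siRNA, and 2 inputs with no antibody, labelled as transfected with empty vector. Precipitation and siRNA therefore cannot be told apart, and no library with a control antibody was analysed here. The growth protocol names a bought line of rat cardiac fibroblasts while the titles name H9C2, a rat heart myoblast line. The labels do not say whether the 2 libraries of a group came from separate cultures, so p-values measure only the spread between these libraries, which may be technical.

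Immediate early genes are switched on within minutes of a growth factor, serum, stress or stretch signal, without new protein synthesis. Kinases of the MAPK family act on transcription factors such as SRF and CREB at their promoters, and their mRNAs are then removed fast, often through AU-rich elements in the 3′ end that recruit deadenylases. In fibroblasts this response is known from serum-stimulated cultures and from wounding. Many of these genes are short and have few or no introns.

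Gene counts summed to 279410 and 264059 in the NONO IP libraries and to 249548 and 238776 in the inputs. Ribosomal RNA genes took 31.9% and 32.2% of NONO IP counts and 42.3% and 41.1% of input counts. At this depth 3 reads are worth between 10.7 and 12.6 CPM (reads scaled to a common library total). A transcript with no read in a library may therefore still lie below that level. On the TMM-scaled levels given further below, 3 reads came to 10.2 CPM in NONO IP replicate 1 and 15.9 CPM in Input replicate 2. The fibroblast marker list summed to 20409 and 19371 reads in the NONO IP and 19488 and 18673 in the inputs, mostly on collagen genes. The fibroblast marker Dcn had no NONO IP read and 2 and 2 input reads, and Tcf21 had 6 and 2 against 2 and 3. The cardiomyocyte list had 80 and 75 NONO IP reads against 43 and 67 input reads, and without Tnnt2 16 and 16 against 27 and 28. The smooth muscle and pericyte list had 538 and 521 against 872 and 829, and the skeletal myoblast list 5 and 9 against 11 and 10, with Myod1, Myf5 and Myog not found by symbol. Endothelial markers summed to 3 and 0 NONO IP reads and 1 and 1 input reads, and macrophage and leukocyte markers to 3 and 0 against 14 and 13. Their part in the results was not tested. Nono itself had 3 and 3 reads in the NONO IP and 21 and 9 in the inputs.

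The 44 transcripts together held few reads. They had 808 and 746 reads in the NONO IP libraries, which is 0.289% and 0.283% of all counts, and 646 and 651 reads in the inputs, which is 0.259% and 0.273%. As scaled levels the order was the other way: the members summed to 2736 and 2665 CPM in the NONO IP and to 3328 and 3445 CPM in the inputs. Scaled CPM are CPM after TMM scaling, which sets the typical gene of both groups level. The level of the whole set relative to the input thus depended on the scaling. A lower level in the NONO IP is not by itself a measure of expression. Recovery with the antibody, the siRNA, fewer cells and less RNA per cell cannot be told apart in these bulk libraries.

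A gene entered the main test, edgeR's quasi-likelihood test over the whole table, when it reached about 10 reads in at least 2 libraries. This held for 22 of the 44 members and for 2920 of all genes. The other 22 members had between 5 and 36 reads summed over the 4 libraries. Of the 22 members tested, 13 met the filter in both groups, 5 through the NONO IP alone (Maff, Nr4a1, Ier3, Dusp4 and Btg2) and 4 through the inputs alone (Egr1, Bhlhe40, Id1 and Ppp1r15a). Passing through 1 group alone favours a lean towards that group. Ier3 and Dusp4, which passed through the NONO IP alone, still had lower scaled means there than in the inputs.

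Of the 22 members tested, 7 were lower in the NONO IP at an adjusted p under 0.05, 1 was higher and 14 did not pass. The lower ones were Junb, Jun, Egr1, Bhlhe40, Id1, Id3 and Ppp1r15a, and the higher one was Csrnp1. Over all 2920 genes tested, 26.9% were lower and 29.8% were higher, and over the 2755 coding genes tested that are not members 27.6% and 27.4%. The 7 lower members are 31.8% of those tested, close to the share over all genes, while the 1 higher member is 4.55%. The median log2 fold change was −0.20 over the 22 members and 0.02 over all genes tested. Among the 13 members that met the filter in both groups, Junb, Jun and Id3 fell, Csrnp1 rose and 9 did not pass, with a median of 0.06.

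**Figure D1:**
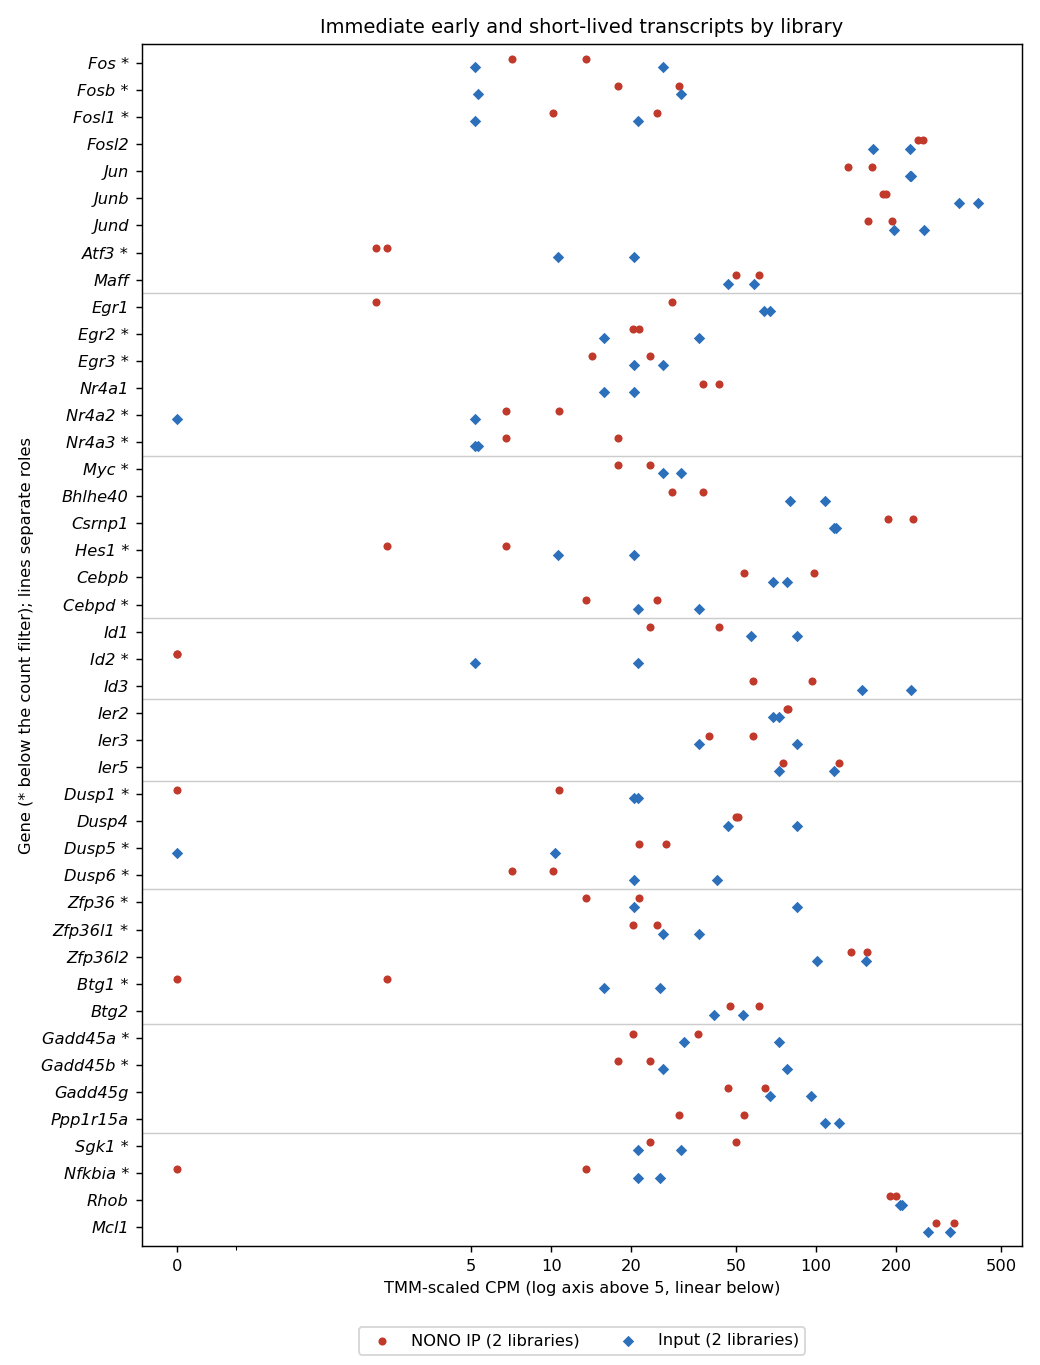
TMM-scaled CPM (x axis, logarithmic above 5) of each of the 44 members in the 2 NONO IP libraries (red circles) and the 2 inputs (blue diamonds), with lines between the roles and an asterisk at members below the count filter. Junb lies at 183 and 179 CPM in the NONO IP libraries and at 345 and 408 CPM in the inputs, whereas Id2 has no read in the NONO IP.

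The AP-1 subunits come first. AP-1 is a dimer of a JUN protein with another JUN, a FOS or an ATF protein, and binds DNA through a basic leucine zipper. Junb, on chromosome 19, had 54 and 50 reads in the NONO IP and 67 and 77 in the inputs. The 2 NONO IP libraries lay close together and both below both inputs. Scaled, that is 181 ± 2.99 CPM in the NONO IP and 376 ± 44.1 CPM in the inputs (SD, n = 2 each), 2.08-fold lower in the NONO IP (log2 fold change −1.05, SE 0.19, edgeR adjusted p = 0.000151). Jun, on chromosome 5, had 48 and 37 reads in the NONO IP and 44 and 43 in the inputs. At 147 ± 21.5 CPM in the NONO IP and 227 ± 0.624 CPM in the inputs (SD, n = 2 each) it was lower by less than Junb (−0.62, SE 0.23, edgeR adjusted p = 0.0286). The call of Jun ended without Input replicate 1 (adjusted p = 0.0977), without Input replicate 2 (0.0966) and without NONO IP replicate 2 (0.128), and under 8 of 14 alternatives in all, where its adjusted p ranged from 0.0181 to 0.577. Junb kept its call under the 15 alternatives that change the main test. It kept it in 4 of 8 further fits that dropped the count filter together with a second choice (adjusted p from 0.000582 to 0.332).

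Jund, the JUN gene with the steadiest expression in most cells, had 57 and 44 reads in the NONO IP and 38 and 48 in the inputs. Its scaled NONO IP levels were both under the input levels, but the difference did not pass the main test (−0.36, SE 0.23, edgeR adjusted p = 0.195). On log2(RPKM + 1) and log2(RPKM + 0.1), from the deposited length-scaled level, limma called Jund lower (adjusted p = 0.0399 and 0.0477). The median gene lay at −0.61 and −0.82 on these scales. Jund was called in 2 of 14 alternatives, over which its log2 fold change ran from −1.02 to 0.19. Fosl2, which encodes the FOS-related protein Fra-2, was the FOS gene with the most reads, 75 and 68 in the NONO IP and 44 and 31 in the inputs. Its scaled levels in the NONO IP exceeded those in either input, again without passing (0.34, SE 0.21, edgeR adjusted p = 0.180). Library totals as the scale brought Fosl2 to 0.81 (adjusted p = 0.00352), where the median gene lay at 0.48; over its 15 alternatives the adjusted p ranged up to 0.904. Maff, a small MAF protein without a transactivation domain, overlapped between the groups with 18 and 14 NONO IP reads against 9 and 11 input reads (0.09, SE 0.40).

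The classic inducible FOS genes were almost unread. Fos had 4 and 2 reads in the NONO IP and 1 and 5 in the inputs. Fosb had 9 and 5 against 6 and 1, and Fosl1, which encodes Fra-1, had 3 and 7 against 1 and 4. These 3 genes overlapped between the groups. Atf3, a stress-induced member of the ATF family, had 1 and 1 reads in the NONO IP and 4 and 2 in the inputs, both NONO IP libraries below both inputs. Limma called Atf3 lower on log2(RPKM + 1) (adjusted p = 0.0491) and not on log2(RPKM + 0.1) (adjusted p = 0.054). Its 4.50-fold lower scaled rate in the NONO IP has an exact conditional 95% interval of 0.806 to 45.6, which includes 1. Such intervals cover counting error only, since reads carry no molecular identifiers.

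Egr1, a zinc finger factor that is among the most strongly serum-induced genes, had the largest fold change of the 22 members tested. On chromosome 18, it had 1 and 8 reads in the NONO IP and 13 and 12 in the inputs. The inputs agreed closely and the NONO IP libraries did not, at 16.0 ± 17.8 CPM in the NONO IP and 65.2 ± 2.45 CPM in the inputs (SD, n = 2 each). This gave −2.03 on the log2 scale (SE 0.55, edgeR adjusted p = 0.00479), and without NONO IP replicate 1 it was −1.18 and no longer passed (adjusted p = 0.0793). Over 14 alternatives Egr1 kept its call in 9, with adjusted p-values from 0.000102 to 0.126. Its relatives Egr2 and Egr3, below the count filter, overlapped between the groups, with 6 and 6 NONO IP reads against 7 and 3 input reads for Egr2 and 7 and 4 against 4 and 5 for Egr3.

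The NR4A genes encode orphan nuclear receptors. All 3 had both NONO IP libraries above both inputs. So had 40.6% of all genes tested, and 24.0% of genes below the count filter with as many reads as the members there. Nr4a1 was not called by the main test, which Nr4a2 and Nr4a3 did not enter. Nr4a1, which met the count filter through the NONO IP alone, had 11 and 12 reads in the NONO IP and 4 and 3 in the inputs, at 40.1 ± 3.98 CPM and 18.2 ± 3.35 CPM (SD, n = 2 each). Its log2 fold change of 1.11 was the highest of the members tested but had an SE of 0.51 and an edgeR adjusted p of 0.0867. Library totals brought Nr4a1 to 1.56 (adjusted p = 0.0135), and its adjusted p ranged to 0.406 over the alternatives. Nr4a2 had 2 and 3 reads against 1 and 0, and Nr4a3 had 2 and 5 against 1 and 1.

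Among the other transcription factors, Bhlhe40 fell and Csrnp1 rose. Bhlhe40, on chromosome 4, a basic helix-loop-helix repressor that also acts in the circadian clock, had 11 and 8 reads in the NONO IP and 21 and 15 in the inputs. Both NONO IP libraries were below both inputs, at 32.9 ± 6.13 CPM in the NONO IP and 93.8 ± 20.4 CPM in the inputs (SD, n = 2 each), a 2.82-fold lower level (−1.49, SE 0.40, edgeR adjusted p = 0.00397). The call of Bhlhe40, which met the count filter through the inputs alone, ended under 1 of 14 alternatives to the main test, the DESeq2 Wald test (adjusted p = 0.0778), over a range from 0.00245. It held in 2 of the 8 fits that also dropped the count filter (adjusted p from 0.0144 to 0.418). Csrnp1, on chromosome 8, encodes a cysteine- and serine-rich nuclear protein. It had 55 and 65 reads in the NONO IP and 23 and 22 in the inputs, and no NONO IP library came near the input level.

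Csrnp1 reached 209 ± 32.5 CPM in the NONO IP and 117 ± 1.46 CPM in the inputs (SD, n = 2 each), 1.77-fold higher (0.83, SE 0.25, edgeR adjusted p = 0.0104). It was also the member with the longest gene length, 2.59 times the median listed gene. With an offset for gene length its change was 0.39 and did not pass (adjusted p = 0.213). The call also ended without Input replicate 1 (adjusted p = 0.0656), without Input replicate 2 (0.0710) and without NONO IP replicate 2 (0.0675). It held under 7 of 15 alternatives, with adjusted p-values from 0.000300 to 0.687.

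Cebpb, a leucine zipper factor of acute-phase and adipocyte genes, had 29 and 15 reads in the NONO IP and 15 and 13 in the inputs (0.06, SE 0.38). Its NONO IP libraries lay on either side of the inputs. Cebpd had 4 and 7 reads against 7 and 4. Myc, the growth-promoting helix-loop-helix factor, had 7 and 5 reads against 6 and 5. Hes1, a Notch target and repressor, had 2 and 1 reads in the NONO IP and 4 and 2 in the inputs. For Myc and Hes1 both scaled NONO IP levels were below both input levels, and neither passed in the edgeR fit over all listed genes (adjusted p = 0.835 for Myc and 0.510 for Hes1).

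The ID genes Id1, Id2 and Id3 each had both NONO IP libraries below both inputs, as had 37.3% of all genes tested. Id2 was below the count filter, where the share was 28.3% of genes with as many reads as the members there. ID proteins are helix-loop-helix proteins without a DNA-binding region that hold E proteins off DNA, and are known as targets of BMP signalling. Id3, on chromosome 5, had 17 and 27 reads in the NONO IP and 29 and 43 in the inputs, at 77.0 ± 27.5 CPM in the NONO IP and 188 ± 55.3 CPM in the inputs (SD, n = 2 each). It was 2.45-fold lower (−1.29, SE 0.31, edgeR adjusted p = 0.00191). Id1, on chromosome 3, which met the count filter through the inputs alone, had 7 and 12 reads against 11 and 16 and was 2.12-fold lower (−1.08, SE 0.43, edgeR adjusted p = 0.0404). Id2 had no read in either NONO IP library and 1 and 4 in the inputs. The exact conditional 95% interval of its fold, as lower in the NONO IP, starts at 1.38. The edgeR fit over all listed genes did not call Id2 (adjusted p = 0.104). Limma called it lower on log2(RPKM + 1) and log2(RPKM + 0.1) (adjusted p = 0.0458 and 0.0257), where the median gene lay at −0.61 and −0.82. With no read in the NONO IP, the size of the Id2 change on these scales, −3.09 and −6.21, depended on the pseudocount.

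The ID calls moved with gene length and with single libraries. Id3 and Id2 are the shortest of the 44 members, at 0.272 and 0.211 times the median listed gene. With the length offset Id3 came to −0.22 (adjusted p = 0.573) and Id1 to −0.46 (adjusted p = 0.388), and neither passed. Without Input replicate 2 the adjusted p of Id3 was 0.0584 and that of Id1 0.249, and without NONO IP replicate 1 that of Id1 was 0.261. Over 14 alternatives each, the adjusted p ranged from 4.63e-05 to 0.573 for Id3 and from 0.0189 to 0.388 for Id1.

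**Figure D2:**
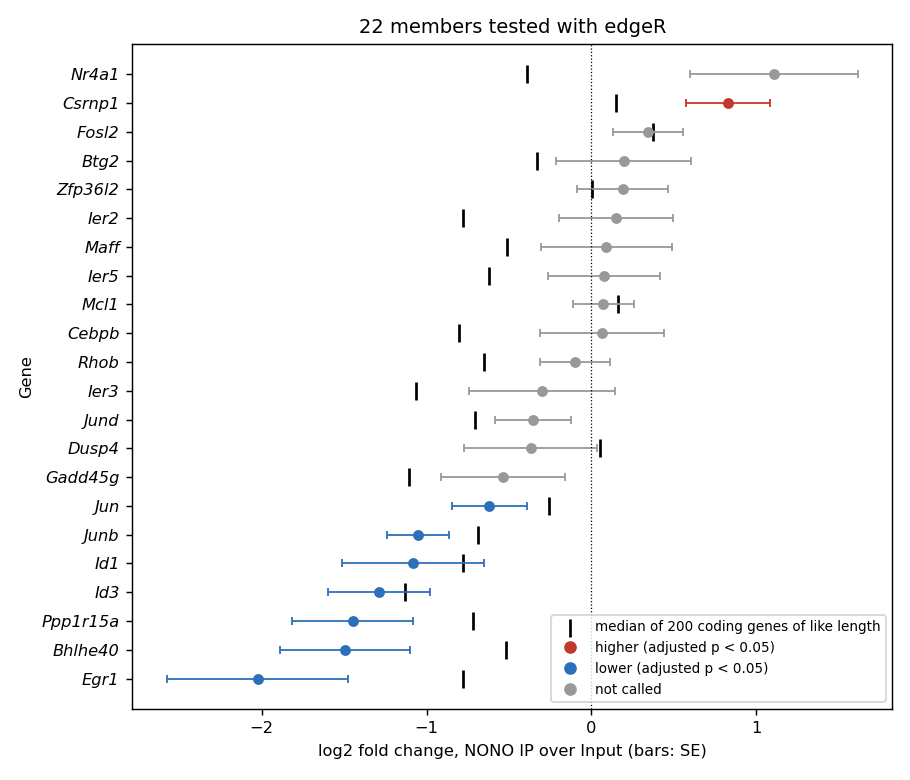
Log2 fold change of NONO IP over input (x axis; bars show the SE) for the 22 members tested, ordered by value, with red for higher, blue for lower and grey for members that did not pass; black ticks give the median of the 200 coding genes nearest in length. The values run from −2.03 for Egr1 to 1.11 for Nr4a1.

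The immediate early response genes Ier2, Ier3 and Ier5 did not pass the test. IER2 and IER5 are short nuclear proteins of stimulated cells, and IER3 acts in stress survival. Ier2 had 23 and 22 reads in the NONO IP and 14 and 13 in the inputs, with both scaled NONO IP levels just above both input levels (0.15, SE 0.34). Ier3 had 17 and 11 reads against 7 and 16 (−0.30, SE 0.44), and Ier5 had 36 and 21 against 14 and 22 (0.07, SE 0.34). Their edgeR adjusted p-values lay between 0.585 and 0.866. A p that misses the threshold does not show that the levels are equal.

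The dual-specificity phosphatases, which switch off MAPK signalling, had 1 tested member. Dusp4 had 15 and 14 reads in the NONO IP and 9 and 16 in the inputs (−0.37, SE 0.40, edgeR adjusted p = 0.452). Dusp1, a nuclear phosphatase of p38 and JNK, had 0 and 3 reads against 4 and 4, and Dusp6, the cytoplasmic ERK phosphatase, had 3 and 2 against 4 and 8; both were below both inputs in both NONO IP libraries. Dusp5, a nuclear ERK phosphatase, lay above both inputs, with 8 and 6 reads against 2 and 0. The ratio of the scaled rates of Dusp5 was 4.66 (exact conditional 95% interval 1.07 to 42.3).

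Members that themselves act in mRNA decay were not called by edgeR, neither in the main test nor, below the count filter, in the fit over all listed genes. ZFP36 proteins bind AU-rich elements and recruit the CCR4-NOT deadenylase, and BTG proteins bind a deadenylase of the same complex. Zfp36l2 had 46 and 38 reads in the NONO IP and 30 and 19 in the inputs (0.19, SE 0.28), and Btg2 had 14 and 17 against 8 and 10 (0.20, SE 0.41), both overlapping between the groups. Zfp36, the gene of tristetraprolin, had 4 and 6 reads against 4 and 16, where Input replicate 2 held most of the input reads, and it was called lower without Input replicate 1 (edgeR adjusted p = 0.00893). Zfp36l1 had 6 and 7 against 7 and 5. Btg1 had 0 and 1 reads in the NONO IP and 5 and 3 in the inputs, a 12.0-fold lower scaled rate with an exact conditional 95% interval of 1.61 to 533, and limma called it lower on log2(RPKM + 1) (adjusted p = 0.0306).

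Of the stress and growth arrest genes, Ppp1r15a fell. PPP1R15A, also known as GADD34, is a regulatory subunit that directs protein phosphatase 1 to the initiation factor eIF2α. Ppp1r15a, on chromosome 1, had 9 and 15 reads in the NONO IP and 21 and 23 in the inputs, at 42.0 ± 16.3 CPM in the NONO IP and 115 ± 9.57 CPM in the inputs (SD, n = 2 each). It was 2.73-fold lower (−1.45, SE 0.37, edgeR adjusted p = 0.00301) and kept its call without each library in turn where the count filter was kept. Its call ended under the DESeq2 Wald test (adjusted p = 0.0585, with a range from 0.000600 over 14 alternatives). It held in 2 of the 8 fits that also dropped the count filter (adjusted p from 0.00840 to 0.381), and Ppp1r15a had met that filter through the inputs alone. The GADD45 genes encode small stress sensors that bind MAP kinase kinase kinases. Gadd45g had 19 and 13 reads against 13 and 18 (−0.54, SE 0.38, edgeR adjusted p = 0.233), Gadd45a 6 and 10 against 14 and 6, and Gadd45b 7 and 5 against 15 and 5.

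Of the signalling and survival members, Mcl1 and Rhob did not pass the main test. Mcl1, an unstable anti-apoptotic BCL2 protein, had the most reads of all 44 members, 98 and 79 in the NONO IP and 62 and 50 in the inputs (0.07, SE 0.18, edgeR adjusted p = 0.756). With library totals Mcl1 was called higher (0.53, adjusted p = 0.0181). Rhob, a short-lived small GTPase, had 56 and 56 reads against 41 and 39 (−0.10, SE 0.21, edgeR adjusted p = 0.712). On the scales log2(RPKM + 1) and log2(RPKM + 0.1), where the median gene lay at −0.61 and −0.82, limma called Rhob lower (−0.74 and −0.76, adjusted p = 0.0376 and 0.0337). Mcl1, Junb and Rhob have the 3 smallest SEs of the members tested. Sgk1, a serum- and glucocorticoid-induced kinase, had 7 and 14 reads against 6 and 4. Nfkbia, the inhibitor IκBα, had 4 and 0 reads in the NONO IP and 5 and 4 in the inputs.

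None of the 22 members below the count filter was called in an edgeR fit over all 13731 listed genes. In that fit 8.59% of all genes were called higher and 4.73% lower. At an unadjusted p under 0.05 it held 5 of the 22, namely Id2, Dusp5, Dusp6, Zfp36 and Btg1, with a lowest adjusted p of 0.0554, for Btg1. The DESeq2 Wald test over all listed genes called none, and had none at an unadjusted p under 0.05. Without Input replicate 1 the edgeR fit called 2, Dusp5 and Zfp36, and without Input replicate 2 it called 1, Gadd45b. Together the 22 had 92 and 100 reads in the NONO IP and 109 and 91 in the inputs. By scaled level, both NONO IP libraries were below both inputs for 10 of the 22 and above both for 3. Among the 5547 listed genes below the filter with as many reads as these members, the shares were 28.3% and 24.0%.

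Over the 22 members tested, both NONO IP libraries were below both inputs for 10 members, above both for 4 and overlapping for 8. Of all genes tested, 37.3% were below in this sense and 40.6% above. The DESeq2 Wald test called 2 members lower, Junb and Id3, against 14.5% of all genes, and 0 higher against 15.5%. On log2(RPKM + 1), where 42 members entered, limma called 10 lower against 18.8% of all genes and 0 higher against 5.19%. With a pseudocount of 0.1 it called 8 lower against 15.1% and 0 higher against 4.59%.

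Gene length moved with these results. Dividing counts by RPKM, the deposited length-scaled level, gives each gene's length relative to other genes. The median length was 0.616 for the members tested and 1.42 for the other 2755 coding genes tested, where 1 is the median listed gene. Of the 22 members, 18 were shorter than the median coding gene tested, as were 39 of all 44. Shorter coding genes had lower log2 fold changes, at a Pearson correlation of 0.315 and a Spearman correlation of 0.317 with log2 relative length across the 2755 genes and of 0.504 and 0.501 across the 22 members. These are descriptions across genes measured in the same 4 libraries, and genes are not independent replicates.

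**Figure D3:**
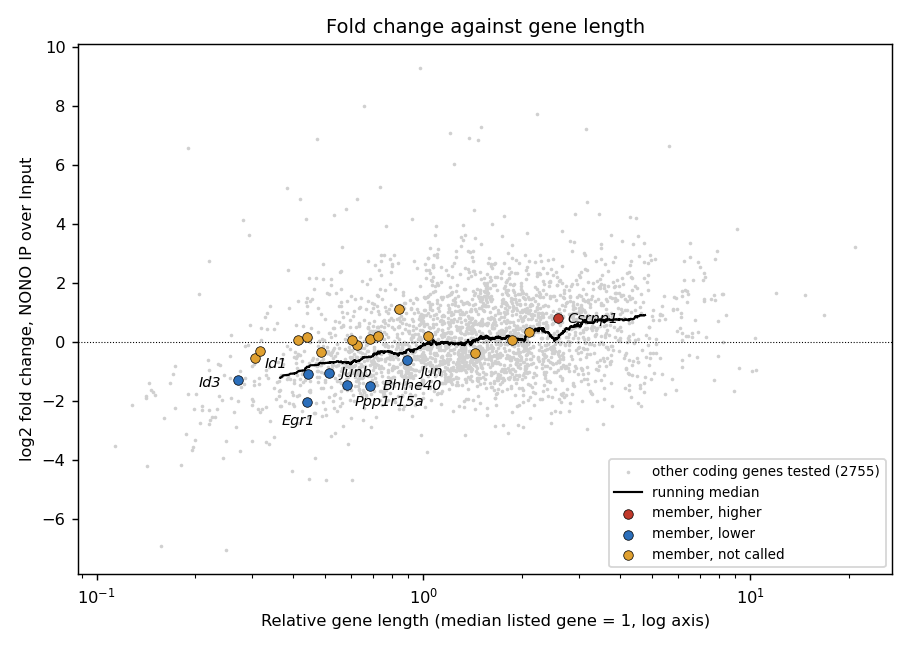
Log2 fold change of NONO IP over input (y axis) against relative gene length (x axis, logarithmic) for the 22 members tested (coloured) and the other 2755 coding genes tested (grey), with a running median as a line. Most members lie left of a relative length of 1, where the running median is below 0, with members on both sides of it.

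Coding genes of like length were taken as a comparison. For each member tested these were the 200 tested coding genes nearest in length. Averaged over the 22 members, 39.9% of these genes were lower in the NONO IP and 18.2% were higher, against 31.8% and 4.55% of the members. The 22 medians of these sets averaged −0.50. The members lay above the median of their set in 12 cases and below it in 10, with a median difference of 0.27. The member median itself, a different quantity, varied by 0.32 between replicates (SD on the log2 scale). Over all 44 members without a count filter the median difference was −0.15.

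Egr1, Bhlhe40 and Ppp1r15a lay farthest below the median of coding genes of like length. All 3 met the count filter through the inputs alone, which favours low values. Egr1 lay at −1.25, Bhlhe40 at −0.98 and Ppp1r15a at −0.73. Of their 200 neighbours in length, 13.0%, 13.0% and 18.5% had a lower log2 fold change. Dusp4 lay at −0.42, Junb and Jun at −0.37 and −0.36, and Id1 and Id3 at −0.30 and −0.16. Of their neighbours in length, 31.5% had a lower value than Junb, 38.0% than Jun, 37.5% than Id1 and 43.5% than Id3. Nr4a1, which met the filter through the NONO IP alone, lay farthest above, at 1.50, then Ier2 at 0.93 and Cebpb at 0.86. Csrnp1, the member called higher, lay at 0.68, and 67.5% of its neighbours in length had a lower value. With the length offset in the edgeR fit, Junb, Egr1, Bhlhe40 and Ppp1r15a stayed lower at an adjusted p under 0.05 and no member was higher.

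A structural feature that the choice of members did not use is the lack of introns. From textbook knowledge, and chosen after the values were seen, 8 members are genes without introns: Jun, Junb, Jund, Ier2, Ier5, Cebpb, Cebpd and Rhob. Of the 7 tested, 2 fell and none rose, with log2 fold changes from −1.05 to 0.15 and a median of −0.10. The 15 other members tested ran from −2.03 to 1.11 with a median of −0.30, and 5 fell and 1 rose. Relative to coding genes of like length the medians were 0.55 for the 7 and −0.03 for the 15. The difference was not tested.

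Levels per length show which of these transcripts were abundant in the cells. In deposited RPKM, the inputs were led by Junb at 108 ± 13.3, Id3 at 102 ± 30.6, Jund at 68.4 ± 13.0, Rhob at 49.0 ± 0.481 and Gadd45g at 39.1 ± 9.89 (SD, n = 2 each). The 2 input values of Id3 lay on either side of those of Junb, whereas Jund, Rhob and Gadd45g followed each other without overlap. In the NONO IP the order was Jund at 33.6 ± 3.82, Junb at 32.7 ± 0.474, Rhob at 28.9 ± 1.99 and Id3 at 26.5 ± 10.3 RPKM, where Junb lay within the range of Jund, Rhob below both of them, and the 2 values of Id3 on either side of Rhob. The median of the 44 members in the inputs was 10.4 RPKM. The lowest were Nr4a2 and Nr4a3, at 0.340 ± 0.481 and 0.430 ± 0.0141 RPKM in the inputs. RPKM levels of the 2 groups rest on different library totals and were not compared by gene here outside the alternatives.

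Other genes of the response were described by lists chosen with earlier results of these data known. Among 47 further inducible, short-lived transcripts, 18 were tested, with a median of 0.10. Of these 18, 3 rose and 2 fell (16.7% and 11.1%), against 29.8% and 26.9% of all genes tested. The 4 with the smallest adjusted p were Nedd9, a focal adhesion scaffold (−1.49, SE 0.29), Rcan1, an inhibitor of calcineurin (1.79, SE 0.41), Hmox1, heme oxygenase 1 (−0.96, SE 0.22), and Kdm6b, a histone H3K27 demethylase (0.94, SE 0.22), with edgeR adjusted p-values from 0.000336 to 0.00163. Rcan1 had 34 and 29 reads in the NONO IP and 8 and 4 in the inputs and met the count filter through the NONO IP alone, whereas the other 3 met it in both groups.

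Of 35 genes that carry ERK, SRF and CREB signals to immediate early promoters, 14 were tested (median 0.74). Among the 14, 5 rose (35.7%) and none fell, against 29.8% and 26.9% of all genes tested. Unlike the members, the 14 had a median relative length of 1.34, near that of all coding genes tested. Crtc3, a coactivator of CREB, had 20 and 21 reads in the NONO IP and 4 and 3 in the inputs (1.93, SE 0.48, edgeR adjusted p = 0.00242). The acetyltransferase gene Crebbp was at 1.04 (SE 0.28), the SRF coactivator gene Mrtfa at 0.83 (SE 0.25) and the kinase gene Braf at 1.34 (SE 0.42), with edgeR adjusted p-values from 0.00450 to 0.0119. Crtc3 and Braf met the count filter through the NONO IP alone.

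Of 38 genes of AU-rich element binding and mRNA decay, 11 were tested (median 0.92). Among the 11, 5 rose and 3 fell (45.5% and 27.3%), against 29.8% and 26.9% of all genes tested. Cnot6l, a deadenylase subunit of CCR4-NOT, had 64 and 66 reads in the NONO IP and 5 and 3 in the inputs (3.40, SE 0.37, edgeR adjusted p = 5.98e-07). Cnot2, a scaffold of that complex, had 36 and 27 against 4 and 1 (3.02, SE 0.52), and Pan3, of the PAN2-PAN3 deadenylase, 56 and 52 against 5 and 5 (2.82, SE 0.36). Pabpc4, a poly(A)-binding protein gene, fell, with 22 and 24 reads against 42 and 46 (−1.52, SE 0.26, edgeR adjusted p = 9.65e-05). The input reads of the first 3 were below the count filter, so these genes passed it through their NONO IP reads.

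Serum-induced genes with stable mRNAs, targets of SRF or YAP, fell at 15 of the 19 tested, with 1 that rose (median −0.87). Of all genes tested, 26.9% fell and 29.8% rose. The median relative length of the 19, 0.674, was close to that of the members tested. Their median difference from coding genes of like length was −0.55. Flna, filamin A, had 450 and 441 reads in the NONO IP and 1087 and 1087 in the inputs (−1.87, SE 0.08, edgeR adjusted p = 1.7e-12). Thbs1, Actb and Vcl, genes of thrombospondin 1, beta actin and vinculin, were at −1.33 (SE 0.07), −1.41 (SE 0.11) and −1.39 (SE 0.11). Flna, Thbs1, Actb and Vcl each had more reads than any member. Abundance was not matched, and its part in the calls was not tested. The lists differ in length, depth and number tested, and the differences between them were not tested.

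**Figure D4:**
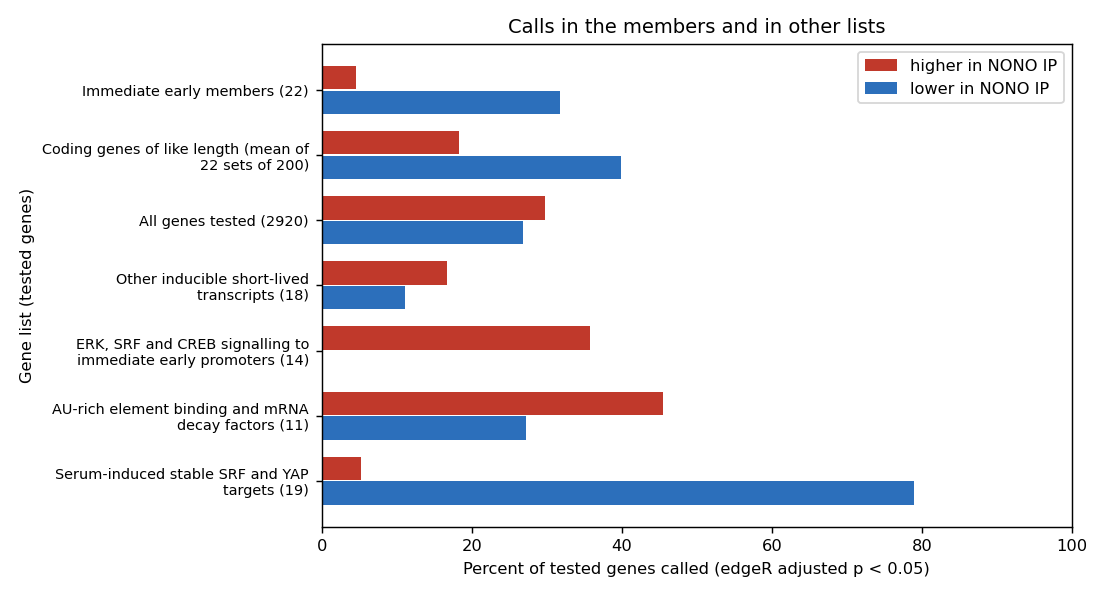
Percent of tested genes called higher (red) or lower (blue) in the NONO IP by edgeR at an adjusted p under 0.05, for the 22 members, the coding genes of like length, all 2920 genes tested and the 4 other lists. The members show 4.55% higher and 31.8% lower, and the stable SRF and YAP targets 5.26% higher and 78.9% lower.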

How the data were processed

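NONO immunoprecipitates and inputs were read from 2 tables of 13731 genes in 4 libraries. One holds counts as the authors deposited them, whole and unscaled. The other holds the authors' RPKM, scaled to gene length and to a library total that is not stated. The submitters' processing notes name HISAT2, HOMER and mRatBN7.2 without a role. The counter, its strand setting and the annotation were not given in the sources used here. All 44 members were found in the RefSeq table of GRCr8, where 6 (Fosb, Atf3, Nr4a3, Id1, Dusp5 and Gadd45a) overlap another gene, so reads of those 6 are uncertain.

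Groups were compared by quasi-likelihood in edgeR 4.0.16 (R 4.3.3), TMM-scaled after filterByExpr, without a block. P-values were adjusted by Benjamini-Hochberg over the 2920 genes kept, which hold 91.1% of counts, and the threshold was 0.05. SEs were the absolute log2 change over the square root of F. The script was tested on simulated data. Between replicates the chi-square per degree of freedom was 1.42 in the NONO IP and 1.12 in the inputs, so they were kept as separate libraries. Alternatives used DESeq2 1.42.0 and limma 3.58.1; those on members below the filter were chosen after seeing the data. The members and gene lists were chosen with earlier results of these data known. Named are all members and, of each other list, the 4 genes with the smallest adjusted p. No sequence is printed.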

Additional observations from a re-analysis of the deposited data

How the results depend on the processing

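Member calls moved with scaling, length and single libraries. Higher members numbered 1 and became 4 with library totals, and 0 with the DESeq2 Wald test, log2(RPKM + 1), log2(RPKM + 0.1), the length offset, and the length offset with the replicate block; leaving out 1 library gave 0 to 1. Lower members numbered 7 and became 2 with the DESeq2 Wald test, 1 with at least 50 counts in 2 libraries (5 members tested), 4 with the length offset, 3 with that and the block, and 4 to 6 with 1 library left out. The replicate block alone left 1 and 7; same-numbered libraries deviated together at r = 0.05. Over all genes, 871 higher became 453 (DESeq2 Wald), 254 (50 counts), 393 and 348 (RPKM scales), and 786 lower became 423, 247 and, with log2(RPKM + 1), 1425, or 444 with library totals. Higher genes made up 52.6% of calls, against 73.3% with library totals and 21.6% and 23.3% on the RPKM scales, whose median genes lay at −0.61 and −0.82. The member median of −0.20 turned to 0.26 with library totals (all genes 0.48), 0.033 with 50 counts, 0.16 with the length offset and 0.16 with offset and block, and lay at −0.90 and −1.05 on the RPKM scales; leaving out 1 library gave −0.41 to −0.09. In 8 fits that dropped the count filter with a second choice, added after seeing the data, Junb kept its call in 4, Egr1 and Id3 in 3, Bhlhe40, Ppp1r15a and Csrnp1 in 2, and Jun and Id1 in 0; the 2 without a NONO IP library called 5 and 4 of all 13731 genes. The median difference from genes of like length, 0.27, was −0.15 with no count filter. In edgeR fits over all listed genes that kept every library, members below the filter that were called numbered 0, and 1 with library totals (Dusp5). Leaving out either input also moved this number. Limma called Atf3, Id2 and Btg1 of these members lower on log2(RPKM + 1), and Id2 on log2(RPKM + 0.1).

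Sign changes all fell on members that did not pass the main test. On the RPKM scales (pseudocounts 1 and 0.1), Fosl2 was at −0.28 and −0.29, Maff −0.52 and −0.57, Cebpb −0.63 and −0.67, Ier2 −0.49 and −0.51, Ier5 −0.57 and −0.60, Zfp36l2 −0.41 and −0.44, Btg2 −0.41 and −0.46, and Mcl1 −0.56 and −0.58. With library totals Jund was at 0.10, Ier3 0.16, Dusp4 0.088 and Rhob 0.36. With the length offset, without and with the block, Jund was at 0.19 and 0.19, Ier3 0.67 and 0.67, Gadd45g 0.46 and 0.46, Rhob 0.25 and 0.25, and Mcl1 −0.24 and −0.24. Cebpb was at −0.011 with limma-voom and Rhob at 0.12 with no count filter. With 1 library left out, Maff ran from −0.077 to 0.24, Cebpb from −0.44 to 0.42, Ier3 from −0.81 to 0.41, Ier5 from −0.32 to 0.44, Dusp4 from −0.75 to 0.10, Zfp36l2 from −0.10 to 0.52 and Mcl1 from −0.073 to 0.20. The causes were not tested beyond the scale shifts given.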
